A study of Mus musculus with 6 samples.

Results

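The p53 pathway and apoptosis genes examined here are a list of 34 genes that encode the p53 family, the inhibitors of p53, targets that p53 switches on, and the proteins of the mitochondrial and death receptor routes to cell death. They were chosen by name, and 31 of them were measured among 19938 genes on the array. Trp53, which encodes p53, and Bax, a pore-forming Bcl2 protein, were not analysed here. Cdkn1a, the cell cycle inhibitor p21, shares its array feature with another gene and is given apart from the comparison. For a gene with several array features, the brightest one on average was used.

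Embryos of the CD1 strain, an outbred mouse stock, were taken at embryonic day 5.0 and kept for 8 hours either in narrow cavities of 90 µm diameter or in wide cavities of 180 µm. The series asked how embryos grown with and without external mechanical cues differ. A sample pooled 30 whole embryos, and 3 samples were taken per cavity, named narrow 1, 2 and 3 and wide 1, 2 and 3 as their titles number them. All embryos were cultured, so embryos that developed without culture are not part of the comparison. The values are log2 signals of an Affymetrix Mouse Gene 1.0 ST array, and since probes differ in brightness, the level of a gene was not compared with that of another. In pools of whole embryos, fewer cells of a type and less RNA per cell cannot be told apart.

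p53 is a transcription factor that is held down in unstressed cells by Mdm2 and Mdm4, mostly through its protein stability and activity, and that switches on genes of cell cycle arrest, DNA repair and death when DNA or other stress signals release it. Death through mitochondria is decided by the Bcl2 family. BH3-only proteins bind the anti-apoptotic members Bcl2, Bcl2l1 and Mcl1 or activate the pore formers Bax and Bak1, cytochrome c then leaves the mitochondria, and Apaf1 assembles it with Casp9 into the apoptosome. The epiblast of the early postimplantation mouse embryo is known for its readiness to die by p53-dependent apoptosis after DNA damage.

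Array medians lay between 7.62 and 7.67. The lowest correlation between any 2 arrays, taken across genes that are not independent, was 0.998. The arrays numbered 1 stood apart from the other 4 on the first principal component (38.5% of the variance), with narrow 1 at -10.6 and wide 1 at -8.01, against 2.76 to 5.87 for the rest. The mean signal of each of 7 lists of tissue markers overlapped between narrow and wide arrays. The lists were epiblast, visceral endoderm, parietal endoderm, extraembryonic ectoderm, trophoblast giant cells with ectoplacental cone, maternal decidua and blood. Of 5 markers of giant cells and ectoplacental cone, Prl3d1 and Prl2c2 were not measured, which left Hand1, Tpbpa and Ascl2. For the 5 epiblast markers it was 11.03 to 11.13 in narrow arrays and 11.12 to 11.18 in wide arrays, and for 3 measured blood markers 6.46 to 6.51 in narrow arrays and 6.36 to 6.96 in wide arrays. Single markers could still separate. Narrow and wide arrays did not overlap for 40% of extraembryonic ectoderm markers, Bmp4 (narrow minus wide -0.21) and Tfap2c (0.093). They did not for 20% of epiblast markers, Sox2 (-0.095), beside 7.70% of all genes. In the other lists all markers overlapped, and no marker passed the test between cavities after adjustment. Array background is not known from these values, and the presence of a transcript was therefore not judged for any gene, markers included.

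No gene of the pathway passed the test between cavities. With limma and Benjamini-Hochberg adjustment over all genes, 0 of 31 passed at 0.05, where 0% of all 19938 genes did, and the smallest adjusted p was 1.00 among the 31 and over all genes. At an unadjusted p under 0.05 there were 2 of the 31, or 6.45%, where 3.40% of all genes were. These were Bcl2, higher in narrow (335 such genes in all, 1.68%), and Bok, lower in narrow (343 such genes, 1.72%). The narrow and wide arrays did not overlap for Bcl2, Bok and Hrk, 3 of 31 or 9.68%, where 7.70% of all genes did not. Bcl2 was the 1 with narrow above wide (4.17% of all genes), and Bok and Hrk were the 2 with narrow below wide (3.54%). Both shares rest on 2 or 3 genes and lie near those of all genes.

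Deviations of same-numbered arrays correlated, most for number 1. These arrays were treated as pairs in a second fit, although the labels state no pairing. With the number as a block, 4 of the 31 had an unadjusted p under 0.05 (12.9%), where 7.25% of all genes had. Bcl2l11 and Hrk joined Bcl2 and Bok. Again 0 passed after adjustment, where 0% of all genes did. With the 4 arrays numbered 2 and 3 alone, 4 of 31 had an unadjusted p under 0.05 (Perp, Bcl2l11, Bok and Bcl2), where 4.58% of all genes had. All 3 same-numbered pairs differed in 1 direction for 8 of the 31 (25.8%), where this held for 28.7% of all genes.

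The median difference (narrow minus wide) of the 31 genes was 0.0061, beside 0.0011 over all genes, with 18 positive and 13 negative. The differences were small: 21 of 31 (67.7%) were within 0.05 of 0, as were 64.8% of all genes, and 3 exceeded 0.1 in size, namely Bcl2, Bok and Bcl2l11. Standard errors ran from 0.040 to 0.072 (median 0.052, against 0.053 over all genes). The 95% intervals of all 31, each for 1 gene alone, lay between -0.30 and 0.29. Changes in signal above 1.23-fold downward or 1.22-fold upward were thus outside the interval of each measured gene, and 29 of the 31 intervals included 0. The intervals bound the array signal and not the amount of transcript, since background is not known. Fas was dim, at the 9.14th percentile of mean signal over all genes, and Trp63, Trp73 and Bik were also below the 50th.

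**Figure D1:**
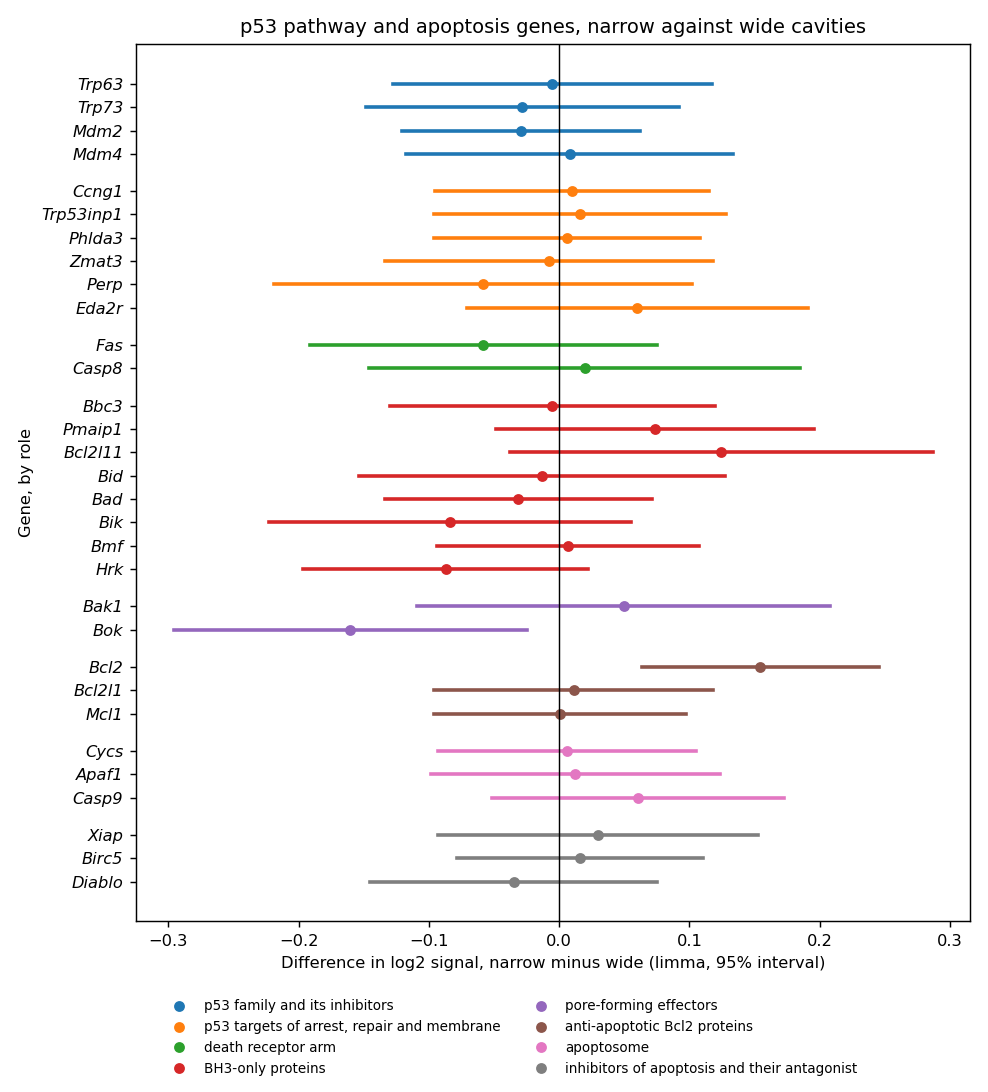
Difference in log2 signal between narrow and wide cavities (horizontal axis, narrow minus wide) for the 31 measured genes, grouped by role; points are limma estimates from 3 narrow and 3 wide arrays and bars their 95% intervals. The bars of Bcl2 and Bok leave 0 on opposite sides, and the other 29 cross it.

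**Figure D2:**
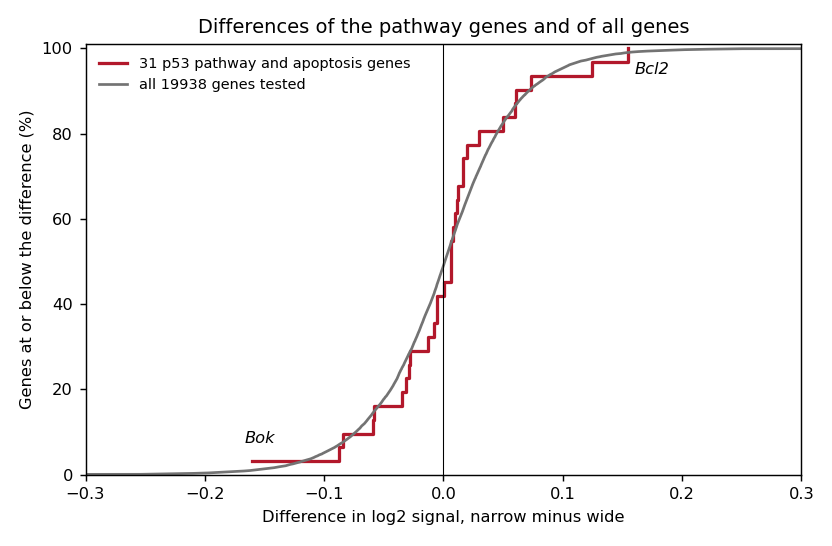
Cumulative share of genes (vertical axis, percent) by difference in log2 signal (horizontal axis, narrow minus wide) for the 31 pathway genes as a red step line and all 19938 genes as a grey line. Both lines pass 50% close to 0, with medians of 0.0061 and 0.0011, and Bok and Bcl2 are at the ends of the red line.

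Among the p53 family and its inhibitors, all 4 measured genes had differences within 0.03 of 0 (median -0.017, 1 positive). Mdm2 encodes the ubiquitin ligase that degrades p53 and is itself a p53 target. Its signal was 11.22, 11.16 and 11.17 in narrow 1, 2 and 3, against 11.22, 11.21 and 11.20 in wide 1, 2 and 3. The groups overlapped through narrow 1, and the difference was -0.029 ± 0.040 (SE; 95% interval -0.12 to 0.062). Trp73, a p53 relative with roles in neural and ciliated cells, had 7.40, 7.54 and 7.51 in narrow 1 to 3, against 7.48, 7.48 and 7.57 in wide 1 to 3. Narrow 1 was the lowest of the 6 and wide 3 the highest, and the groups overlapped. Its difference was -0.028 ± 0.052. Trp63, the p53 relative of stratified epithelia, was at -0.0053 ± 0.053, and Mdm4, which binds and restrains p53, at 0.0080 ± 0.055.

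The 6 measured targets of arrest, repair and membrane function had a median difference of 0.0080, with 4 positive and 2 negative. Ccng1, the cyclin G1 gene and a classical p53 target, differed by 0.010 ± 0.046. Phlda3, an inhibitor of Akt signalling, differed by 0.0060 ± 0.044, Trp53inp1, a stress-induced regulator of p53 and autophagy, by 0.016 ± 0.049, and Zmat3, an RNA-binding protein, by -0.0079 ± 0.055. In all 4 the narrow and wide arrays overlapped. Eda2r, a receptor of the TNF receptor family, had 8.32, 8.17 and 8.21 in narrow 1 to 3, against 8.10, 8.22 and 8.20 in wide 1 to 3. Narrow 1 was its highest and wide 1 its lowest array, and its difference was 0.060 ± 0.057. It turned to -0.024 with the arrays numbered 2 and 3 alone.

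Perp, a desmosome protein that p53 and p63 induce, had 11.72, 11.48 and 11.48 in narrow 1 to 3, against 11.66, 11.61 and 11.59 in wide 1 to 3. Narrow 1 was the highest of the 6 arrays, whereas narrow 2 and 3 were below all wide arrays. The difference was -0.059 ± 0.070. Without narrow 1 it was -0.14 at an unadjusted p of 0.0174, with an adjusted p of 0.954 by limma.

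Short stretches before the start sites are shown for the 4 measured genes in which a match to the p53 half-site, the unit that is repeated in a full p53 response element, was found. RefSeq windows (build GRCm38.p6) of 250 bases before to 50 after a start site were held for 25 of the 31 genes, 37 windows in all, and 4 of the 37 (10.8%) had a match, where 8.36% of 32851 windows of all genes had one. The half-site equals its own reverse complement, so each match stands on both strands. Each line gives 50 bases, 5′ to 3′ on the strand of the gene, with the match in capitals: Mdm2 (chr10:117710915-117710964, minus strand), Ccng1 (chr11:40755442-40755491, minus), Bmf (chr2:118544771-118544820, minus) and Birc5 (chr11:117848989-117849038, plus).
Mdm2: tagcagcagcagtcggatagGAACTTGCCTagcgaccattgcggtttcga
Ccng1: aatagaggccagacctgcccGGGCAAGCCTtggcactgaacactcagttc
Bmf: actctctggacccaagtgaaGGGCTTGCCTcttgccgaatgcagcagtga
Birc5: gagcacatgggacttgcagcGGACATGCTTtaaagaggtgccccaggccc
The capitals begin 186, 185, 213 and 228 bases before the start in Mdm2, Ccng1, Bmf and Birc5, and that of Bmf is in 1 of its 3 windows. The 4 genes differed between cavities by -0.029, 0.010, 0.0066 and 0.016 in the same order. A match in these letters is a description of the window and does not show binding.

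In the death receptor arm, neither gene separated the cavities. Fas, the receptor whose ligand starts this route, had 5.43, 5.64 and 5.51 in narrow 1 to 3, against 5.57, 5.62 and 5.56 in wide 1 to 3, with a difference of -0.058 ± 0.058. Both the lowest and the highest array were narrow. Casp8, the caspase that Fas recruits, had 10.48, 10.32 and 10.23 in narrow 1 to 3, against 10.40, 10.35 and 10.24 in wide 1 to 3. The groups overlapped (difference 0.020 ± 0.072), and in both cavities number 1 was the highest and number 3 the lowest.

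The 8 BH3-only genes, whose products sense damage and engage the other Bcl2 proteins, spread from -0.087 to 0.12, with 3 positive and 5 negative differences and a median of -0.0091. Bcl2l11 encodes Bim, which binds all anti-apoptotic members. Its signal was 9.94, 9.85 and 9.78 in narrow 1 to 3, against 9.87, 9.66 and 9.66 in wide 1 to 3. Wide 1 was above narrow 2 and 3, so the groups overlapped, while each narrow array exceeded the wide array of its number by 0.068, 0.19 and 0.12. The difference was 0.12 ± 0.070, with an unadjusted p of 0.115, 0.0197 with the block, and adjusted p = 1.00 by limma and 0.674 with the block. Its difference was 0.20 without wide 1 and 0.082 without narrow 1, and between these with any other array left out.

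Hrk, a BH3-only gene best known from neurons, had 9.39, 9.51 and 9.46 in narrow 1 to 3, against 9.51, 9.59 and 9.52 in wide 1 to 3. The groups touched without overlap, with narrow 2 at 9.506 and wide 1 at 9.508. The difference was -0.087 ± 0.048 (unadjusted p = 0.104, 0.0491 with the block, and limma adjusted p = 1.00 and 0.678). When the arrays were centred on their medians or quantile normalized, Hrk overlapped, and Bok and Bcl2 did not.

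Bbc3 encodes Puma, a chief mediator of p53-dependent death. It had 8.27, 8.23 and 8.31 in narrow 1 to 3, against 8.24, 8.21 and 8.38 in wide 1 to 3. The wide arrays enclosed the narrow ones, and the difference was -0.0052 ± 0.054 (95% interval -0.13 to 0.12). The other p53-induced member, Pmaip1 or Noxa, differed by 0.074 ± 0.053. Bik, which acts at the endoplasmic reticulum, was at -0.084 ± 0.060, with narrow arrays from 7.25 to 7.49 and wide arrays from 7.45 to 7.46. Bid, which carries the signal of Casp8 to mitochondria, was at -0.013 ± 0.061. Bad, which growth factor signalling keeps inactive by phosphorylation, was at -0.031 ± 0.044, and Bmf, tied to the cytoskeleton and to loss of attachment, at 0.0066 ± 0.044. In all 5 the narrow and wide arrays overlapped.

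Bok was the gene with the largest negative difference of the 31. It encodes a Bcl2 protein with the structure of a pore former that acts largely outside the control of the anti-apoptotic members. Its signal was 10.25, 10.40 and 10.32 in narrow 1 to 3, against 10.40, 10.57 and 10.47 in wide 1 to 3. Every narrow array was below every wide one, by the smallest margin between narrow 2 and wide 1 (10.397 and 10.400). Narrow averaged 10.32 ± 0.07 and wide 10.48 ± 0.08 (SD, n = 3 each). The difference was -0.16 ± 0.059, or 0.895-fold (95% interval 0.815 to 0.983). Same-numbered pairs differed by -0.15, -0.17 and -0.16. The unadjusted p was 0.0259, and 0.00337 with the block, with limma adjusted p = 1.00 and 0.674. The unadjusted p of Bok was above 0.05 without narrow 1, narrow 3, wide 2 or wide 3 (up to 0.0966), and the difference ran from -0.20 to -0.12 over the 6 arrays left out in turn.

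Bak1, the other pore former measured, had 10.69, 10.62 and 10.76 in narrow 1 to 3, against 10.66, 10.51 and 10.76 in wide 1 to 3. The groups overlapped, and the arrays numbered 2 were the lowest and those numbered 3 the highest in both cavities. Its difference was 0.050 ± 0.069.

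Bcl2 had the largest positive difference of the 31 and the smallest p. It is the founding anti-apoptotic member, which holds BH3-only proteins and pore formers in check at the mitochondrial membrane. Its signal was 8.75, 8.71 and 8.77 in narrow 1 to 3, against 8.60, 8.57 and 8.60 in wide 1 to 3. All narrow arrays were above all wide ones, with no array of either group near the other. Narrow averaged 8.74 ± 0.03 and wide 8.59 ± 0.02 (SD, n = 3 each). The difference was 0.15 ± 0.040, or 1.11-fold (95% interval 1.04 to 1.19), and same-numbered pairs differed by 0.15, 0.15 and 0.17. The unadjusted p was 0.00445, with limma adjusted p = 1.00, and 0.674 with the block. Leaving out each array in turn gave differences from 0.14 to 0.17 and unadjusted p from 0.00752 to 0.0193.

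In the other anti-apoptotic genes, Mcl1 and Bcl2l1, the groups overlapped. Mcl1, a short-lived protein that the mouse embryo needs around implantation, had 11.57, 11.56 and 11.57 in narrow 1 to 3, against 11.61, 11.58 and 11.51 in wide 1 to 3. Wide arrays enclosed the narrow ones, and the difference was 0.00067 ± 0.042 (95% interval -0.096 to 0.097). Bcl2l1, which encodes Bcl-xL, had 9.39, 9.32 and 9.44 in narrow 1 to 3, against 9.38, 9.33 and 9.40 in wide 1 to 3. The narrow arrays enclosed the wide ones, with a difference of 0.011 ± 0.046. Whether the difference of Bcl2 was unlike that of Mcl1 or Bcl2l1 was not tested.

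**Figure D3:**
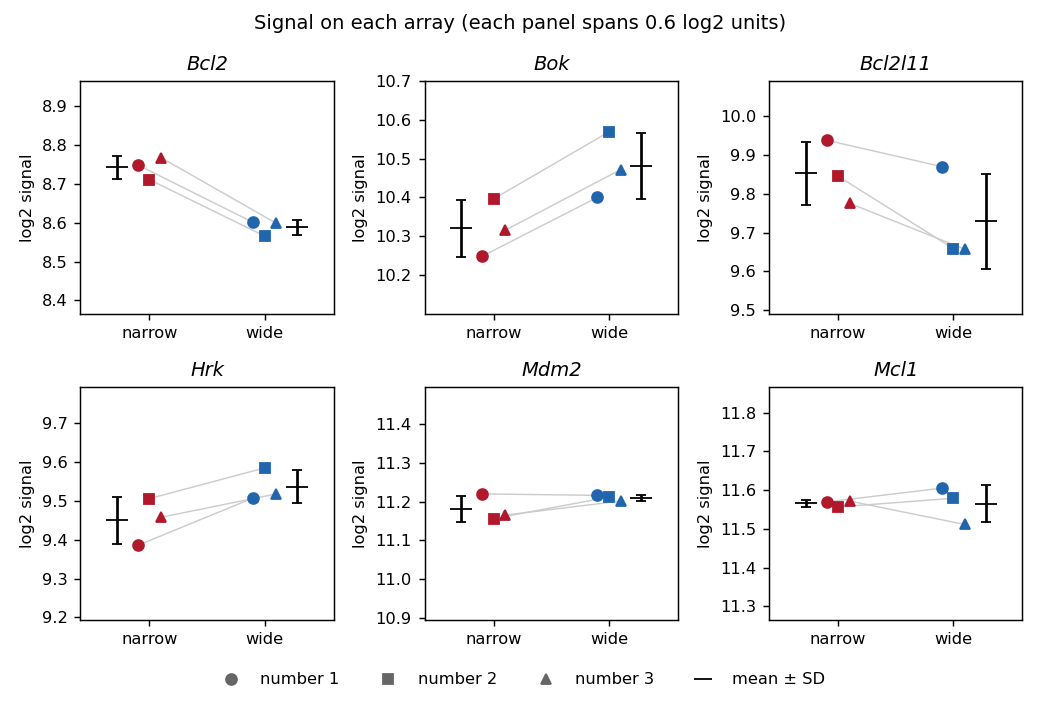
Log2 signal (vertical axis, each panel spanning 0.6) on the narrow arrays in red and the wide arrays in blue, for 6 of the genes; marker shape gives the replicate number, grey lines join arrays of 1 number and black bars are mean ± SD of 3 arrays. Bcl2 and Bok separate the cavities in opposite directions, Hrk does so by the smallest margin, and Bcl2l11, Mdm2 and Mcl1 overlap.

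The sequences before the start sites of Bcl2 and Bok are shown because these genes had the 2 smallest p-values of the list. Each line gives the 250 bases before the RefSeq start, 5′ to 3′ on the strand of the gene (GRCm38.p6; Bcl2 chr1:106714291-106714540, minus strand; Bok chr1:93685325-93685574, plus strand). Capitals mark the GC box GGGCGG, or CCGCCC where it is on the other strand, a motif bound by Sp1 and its relatives.
Bcl2: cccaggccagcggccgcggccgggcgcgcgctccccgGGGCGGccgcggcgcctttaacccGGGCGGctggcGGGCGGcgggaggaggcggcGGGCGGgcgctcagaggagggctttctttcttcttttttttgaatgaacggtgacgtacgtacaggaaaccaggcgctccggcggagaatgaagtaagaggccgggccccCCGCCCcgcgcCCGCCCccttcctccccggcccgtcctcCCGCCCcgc
Bok: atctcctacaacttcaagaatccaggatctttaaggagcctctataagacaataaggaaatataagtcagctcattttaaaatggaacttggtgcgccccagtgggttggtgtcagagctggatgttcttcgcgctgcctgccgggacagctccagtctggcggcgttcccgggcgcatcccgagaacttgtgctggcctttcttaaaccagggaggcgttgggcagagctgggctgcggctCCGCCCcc
The Bcl2 window of 300 bases held 7 GC boxes and was 76.0% G and C, and that of Bok held 1 and was 56.3%. A GC box was found in 24 of the 37 windows of measured genes (64.9%) and in 35.7% of all windows. Neither gene had a p53 half-site in its window, which says only that the letters are not in these bases.

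The 3 apoptosome genes had small positive differences (median 0.012). Casp9, the initiator caspase of the mitochondrial route, had 9.35, 9.46 and 9.48 in narrow 1 to 3, against 9.35, 9.35 and 9.41 in wide 1 to 3. Narrow 1 was below wide 3, so the groups overlapped, and the difference was 0.061 ± 0.049. Apaf1, the scaffold of the apoptosome, had 9.96, 10.10 and 10.05 in narrow 1 to 3, against 9.9998, 10.05 and 10.03 in wide 1 to 3. Narrow arrays enclosed the wide ones, with a difference of 0.012 ± 0.048. Cycs, which encodes cytochrome c, was at 0.0061 ± 0.043, and its 2 other features at 0.045 and -5.6e-05. Near-identical processed copies of Cycs exist in the genome, so its value is uncertain.

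Among the inhibitors of apoptosis and their antagonist, Xiap, which blocks caspases directly, had 10.01, 9.89 and 9.91 in narrow 1 to 3, against 9.85, 9.99 and 9.88 in wide 1 to 3. The groups overlapped, with a difference of 0.030 ± 0.053. Birc5, or survivin, which serves chromosome segregation and is abundant in dividing cells, had 10.03, 10.04 and 9.99 in narrow 1 to 3, against 10.04, 10.004 and 9.97 in wide 1 to 3. Its arrays interleaved (0.016 ± 0.041). Diablo, the mitochondrial antagonist of Xiap, had 10.62, 10.54 and 10.51 in narrow 1 to 3, against 10.65, 10.57 and 10.57 in wide 1 to 3. Each narrow array was slightly below the wide array of its number, the groups overlapped, and the difference was -0.035 ± 0.048.

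The same arrays were compared by replicate number, with cavity in the fit. By the limma F-test over the 3 numbers, 0 of the 31 genes passed after adjustment, where 0.00502% of all genes did, the 1 gene being Gm773, named after its values were seen. At an unadjusted p under 0.05 there were 4 of the 31 (12.9%), where 18.0% of all genes were. The unadjusted values were 0.0149 for Casp8, 0.0177 for Bcl2l11, 0.0183 for Bak1 and 0.0251 for Bok, with limma adjusted p from 0.215 to 0.235, and 0.0690 for Perp, the next gene. Casp8 averaged 10.44, 10.33 and 10.23 over the 2 arrays numbered 1, 2 and 3, and Bcl2l11 averaged 9.90, 9.75 and 9.72. Bok was lowest in number 1 (10.32, 10.48 and 10.39), and Bak1 lowest in number 2 (10.67, 10.57 and 10.76). The numbers thus did not order these genes alike. With a variance trend on signal, the same 4 genes passed after adjustment (limma adjusted p from 0.0281 to 0.0490), where 5.53% of all genes did. What the replicate numbers mean (a day, a litter or an order of handling) is unstated in the labels.

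**Figure D4:**
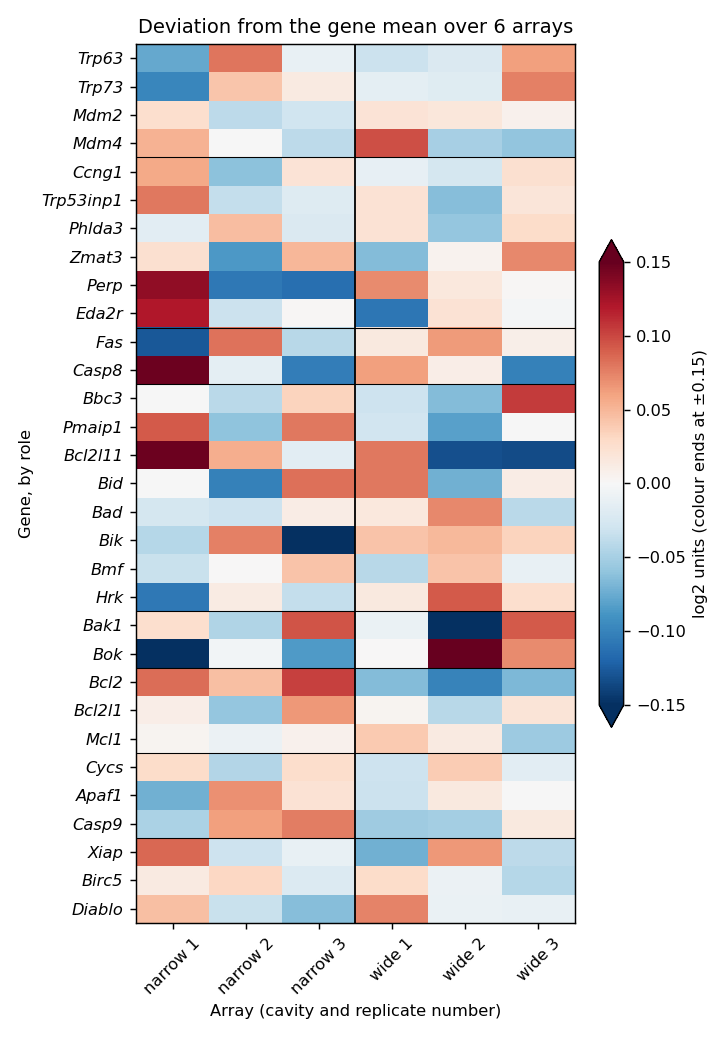
Deviation of each array from the mean of the gene over 6 arrays (colour, log2 units, ending at ±0.15) for the 31 genes in rows by role, with narrow arrays left and wide arrays right of the black line. The row of Bcl2 changes colour at the line. In the row of Bok, narrow 2 (10.397) and wide 1 (10.400) lie near its mean, with the other narrow arrays lower and the other wide arrays higher. Casp8 and Bcl2l11 are high in the arrays numbered 1 of both cavities.

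Further genes of the pathway, from 4 lists chosen by function, gave counts of the same order. Of 29 measured further p53 targets, 1 had an unadjusted p under 0.05 (3.45%, beside 3.40% of all genes), and the median difference was 0.00074. That gene was Rrm2b, a ribonucleotide reductase subunit for DNA repair, with 7.81, 7.84 and 7.99 in narrow 1 to 3, against 7.81, 7.64 and 7.62 in wide 1 to 3. The pair numbered 1 was close (narrow 7.810, wide 7.806) and the other 2 pairs were apart. The groups did not overlap, by the margin of that close pair, as in 10.3% of this list and 7.70% of all genes. The difference of Rrm2b was 0.19 ± 0.067. Plk3, a stress-responsive polo-like kinase, followed at 0.097 ± 0.044. With the block, Sesn2, a stress-induced sestrin, joined Rrm2b, for 2 of 29, where 7.25% of all genes had an unadjusted p under 0.05.

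Of 15 kinases and cofactors that act on p53, 0 had an unadjusted p under 0.05, beside 3.40% of all genes, and the differences ran from -0.051 for Usp7, a deubiquitinase of Mdm2 and p53, to 0.064 for Atr, a kinase of the DNA damage response. Of 8 further Bcl2 family genes, 1 had an unadjusted p under 0.05 (12.5%, beside 3.40% of all genes). That was Bcl2l2, which encodes the anti-apoptotic Bcl-w, with 8.51, 8.37 and 8.46 in narrow 1 to 3, against 8.60, 8.61 and 8.53 in wide 1 to 3. All its narrow arrays were below all wide ones, with a difference of -0.13 ± 0.050, opposite in sign to that of Bcl2. Bcl2l14 was at -0.079 ± 0.045. Of 23 caspases, death receptor adaptors and other death genes, 0 had an unadjusted p under 0.05, beside the same 3.40%. Tradd (0.10 ± 0.055) and Fadd (0.081 ± 0.047), adaptors of death receptors, had the smallest p of that list. With the block the count was 2 of 23, where 7.25% of all genes were, and the 2 were Tradd and Pdcd4, an inhibitor of translation. Sesn2 and Pdcd4 were named after their values were seen. In all 4 lists 0 genes passed with limma after adjustment over all genes.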

How the data were processed

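The deposited values ran from 4.33 to 14.31, and the log2 scale of these deposited signals was read from that range, since the labels state none. The array type and the pooling are given per the labels' protocols and the design text. How the authors corrected for background and normalized was not given in the sources used here. No scaling was added, 6 arrays set the precision, and the values carry no measure of background.

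Features were named through the platform annotation: of 28853, 21789 named 1 gene, 1621 several and 5443 none, which gave 19938 genes. All 31 measured genes kept their symbol in RefSeq. Differences (narrow minus wide) were fitted with limma 3.58.1 in R 4.3.3 (lmFit, eBayes, two-sided) on 6 arrays with no filter, and adjusted over all genes. An exact permutation test of 3 against 3 cannot go below 0.1. The fits were tested on simulated data. The design text calls the samples biological replicates.

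The genes, lists and tests were chosen with earlier results of these data known. All 34 listed genes were to be named. Values on every array were given, where measured, for Trp53, Cdkn1a, Mdm2, Bbc3, Bax, Mcl1, Casp9, Birc5, the 2 genes of smallest p in each role group (for death receptors 1), and the 5 of smallest p for the number. From each further list the 2 of smallest p were named.

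Deviations from the group means correlated at 0.516, 0.176 and 0.272 between arrays numbered 1, 2 and 3. Since each was above 0.1, same-numbered samples were treated as pairs in the blocked fit. The standard errors and intervals given for single genes are from the fit without the block. The deviations of 3 arrays from their mean sum to 0, so the correlations are not independent. A deviation shared by the arrays numbered 1 alone would raise the other correlations. Whether numbers 2 and 3 were paired beyond that was not tested, and the labels state no pairing.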

Additional observations from a re-analysis of the deposited data

How the results depend on the processing

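Over 15 alternatives, 0 of the 31 genes and 0 of all genes passed between cavities after adjustment. In every one of them Bcl2 had an unadjusted p under 0.05 (0.00193 to 0.0193). Bcl2 was picked for its smallest p and the alternatives reuse the same arrays, so this range is not independent support. The list had 2 genes at an unadjusted p under 0.05 (6.45%, beside 3.40% of all genes). These became 4 with the replicate number as a block (12.9%, beside 7.25%) and 1 with unequal variances (3.23%, beside 2.39%). Without each array the count was 1 to 4 (3.23% to 12.9%, beside 2.49% to 4.97%). It was 4 with the arrays numbered 2 and 3, chosen after the data were seen (12.9%, beside 4.58%). Over all genes the 678 at that threshold (3.40%) became 1446 with the block (7.25%). With only the 9969 brighter genes tested (above the 50th percentile), 384 were at that threshold (3.85%). Without each array the number over all genes ran from 497 to 990. The 3 genes without overlap became 3 to 8 without each array (9.68% to 25.8%, where 14.5% to 20.4% of all genes did not overlap) and 10 with the arrays numbered 2 and 3 (32.3%, where 33.3% of all genes did not overlap), where fewer samples were compared. The median difference of 0.0061 ran from -0.0075 to 0.010 without each array, negative without narrow 1, narrow 3 or wide 2, and was 0.016 with arrays centred on their medians, 0.00053 with quantile normalization and -0.0049 with the arrays numbered 2 and 3.

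For the replicate number, the 1 gene that passed became 1103 with an intensity trend, 696 with only the brighter genes, 2 with features averaged, 2 without the cavity term and 0 to 6 without each array. The 0 genes of the list became 4 with the trend. Where no cause is stated, the cause was not tested.

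Of 461 differences of single genes under the alternatives, 409 kept their sign, and 52, of 19 genes with differences of at most 0.060, changed it. Part of the 409 was fixed in advance. Alternatives that changed only the error model, such as the trend, the block or unequal variances, could not change a difference. Testing only the brighter genes could not either, and averaging features could change only Cycs. The 409 of 461 is thus not a measure of stability. The block changed no call after adjustment.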

Other observations

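Cdkn1a, the p53 target that encodes the cell cycle inhibitor p21, shares its feature with 4930567H12Rik, so the signal cannot be assigned to either. The feature had 9.78, 9.43 and 9.39 in narrow 1 to 3, against 9.74, 9.58 and 9.64 in wide 1 to 3. Narrow 1 was the highest of the 6 arrays and narrow 2 and 3 were the lowest, so the groups overlapped. The difference was -0.12 ± 0.10, with limma adjusted p = 1.00 over all 28853 features.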
